A study of Mus musculus with 36 samples.

Results

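9 genes that mark the granule cells of the dentate gyrus were followed through 36 RNA sequencing libraries of mouse hippocampus. They are Prox1, C1ql2, Dsp, Glis3, Tdo2, Fam163b, Lct, Trpc6 and Plk5, chosen by symbol from a list of known markers, with earlier results of these data known. All 9 stand among the 24421 gene symbols of the deposited tables. The libraries were made from polyadenylated RNA, 6 to a group (3 of each sex). 3 groups were of C57BL/6 mice and form an aging arm: old mice of 18 months given nanoligomer, old mice of 18 months and young mice of 8 months. The other 3 groups, all of 4 months, form a transgenic arm: APP/PS1 mice given nanoligomer, APP/PS1 mice and their non-carrier littermates. APP/PS1 mice carry transgenes for mutant forms of APP and presenilin 1 and lay down amyloid plaques in the forebrain, and a nanoligomer is a short antisense molecule built on peptide nucleic acid. The series title names NF-kB and NLRP3, both of inflammatory signalling, as what was downregulated. Not given in the sources used here are the transgenic line, the promoters that drive its transgenes, the dose and the length of treatment, and whether untreated mice received a vehicle. APP/PS1 female 1 denotes the first female library of the APP/PS1 group, and the other libraries are named in the same way.

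Granule cells are the small, densely packed principal neurons of the dentate gyrus, the entrance to the hippocampal circuit. Their axons, the mossy fibres, end on mossy cells and on CA3 pyramidal cells, and new granule cells are added through adult life in the mouse. Prox1 is a homeodomain transcription factor that sets and keeps granule cell identity, and Glis3 is a zinc finger transcription factor. C1ql2 is a secreted C1q-like protein of mossy fibre terminals that gathers glutamate receptors at the CA3 synapse in the mouse. Dsp is desmoplakin, a desmosomal linker that in the mouse brain is found mainly in granule cells. Tdo2 is tryptophan dioxygenase, which opens the kynurenine pathway, and Lct is lactase, an enzyme best known from the gut. Trpc6 is a cation channel gated by diacylglycerol, Plk5 is a brain member of the polo-like kinase family, and Fam163b is a membrane protein of little known function. In RNA of whole tissue, fewer granule cells and less RNA per granule cell cannot be told apart.

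On GRCm38 all 9 are annotated as protein-coding, and reads were counted over each gene. Chromosome 1 holds Prox1 (190118035 to 190170714), C1ql2 (120340582 to 120343174) and Lct (128284756 to 128328318). Dsp lies on chromosome 13 from 38151294 to 38198577 and Glis3 on chromosome 19 from 28258851 to 28680077. Tdo2 lies on chromosome 3 from 81957090 to 81976202 and Fam163b on chromosome 2 from 27110380 to 27142491. Trpc6 lies on chromosome 9 from 8544142 to 8680741 and Plk5 on chromosome 10 from 80356459 to 80365489. Genes on the opposite strand overlap Prox1, Dsp, Glis3 and Trpc6, and the authors' strand setting in counting was not given in the sources used here. 4933413C19Rik overlaps Glis3 on the same strand, where strand cannot separate reads. Of the opposite-strand partners, Gm32014 (over Trpc6) reached 1.78 CPM at most and D930032P07Rik (over Glis3) 0.279 CPM at most.

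Promoters of the 9 genes were read from RefSeq on GRCm38.p6, from 250 bases before to 50 bases after the annotated start. All 9 genes were matched, with 10 promoters, since Prox1 had an entry for each of its pair of starts. C1ql2, Dsp and Lct are shown because their levels varied most between libraries and moved together, and Fam163b because its level was the highest per length and varied little. C1ql2 is at chr1:120340332-120340631 on the plus strand, Dsp at chr13:38151044-38151343 on the plus strand, Lct at chr1:128328269-128328568 on the minus strand and Fam163b at chr2:27142428-27142727 on the minus strand. Each is written 5′ to 3′ along its gene, and capitals mark E-boxes (CANNTG, which reads the same on both strands), the motif bound by basic helix-loop-helix factors such as the NeuroD family.
C1ql2: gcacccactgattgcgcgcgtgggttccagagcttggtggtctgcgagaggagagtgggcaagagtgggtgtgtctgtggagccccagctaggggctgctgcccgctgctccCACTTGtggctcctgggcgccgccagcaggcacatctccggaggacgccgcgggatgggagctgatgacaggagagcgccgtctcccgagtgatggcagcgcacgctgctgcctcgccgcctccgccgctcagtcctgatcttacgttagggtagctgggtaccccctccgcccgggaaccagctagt
Dsp: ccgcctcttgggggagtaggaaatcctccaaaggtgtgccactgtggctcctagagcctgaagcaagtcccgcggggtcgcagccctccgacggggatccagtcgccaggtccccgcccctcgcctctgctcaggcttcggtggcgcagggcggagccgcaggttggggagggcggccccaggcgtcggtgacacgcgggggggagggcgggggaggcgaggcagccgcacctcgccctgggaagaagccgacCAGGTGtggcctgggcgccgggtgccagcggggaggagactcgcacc
Lct: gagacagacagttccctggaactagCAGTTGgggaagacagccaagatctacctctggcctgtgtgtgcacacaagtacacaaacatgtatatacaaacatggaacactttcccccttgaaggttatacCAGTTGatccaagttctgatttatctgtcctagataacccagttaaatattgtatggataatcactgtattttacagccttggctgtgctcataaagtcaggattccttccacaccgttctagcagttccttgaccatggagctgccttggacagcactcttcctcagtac
Fam163b: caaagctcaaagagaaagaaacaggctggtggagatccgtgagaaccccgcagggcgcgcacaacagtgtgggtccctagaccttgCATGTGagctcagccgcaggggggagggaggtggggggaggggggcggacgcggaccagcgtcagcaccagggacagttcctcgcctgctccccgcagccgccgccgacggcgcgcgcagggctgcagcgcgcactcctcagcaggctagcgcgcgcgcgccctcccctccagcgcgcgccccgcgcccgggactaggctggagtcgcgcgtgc
The C1ql2, Dsp and Fam163b stretches hold 1 E-box each and the Lct stretch holds 2. GC content was 67.3% for C1ql2, 73% for Dsp, 44.7% for Lct and 72% for Fam163b, against a median of 52.7% over 32851 promoters. An E-box was found in 7 of the 10 promoters, close to the 72.3% of all promoters that hold one. CAGATG, the form of the E-box bound by NeuroD factors, was in 1 of 10 promoters, against 17.2% of all. TATAAA was in 2 of 10, against 13.6% of all, and the GC box GGGCGG in 7 of 10, against 35.7% of all, each searched on both strands. A match describes these letters and is not a measured binding site.

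Levels are given as CPM, counts per 1000000 reads, from whole reads recovered from the deposited normalized counts, and tests used the deposited values themselves. 35 libraries held 27.6 to 46.3 M reads on 17358 to 19284 genes. Female 3 of the treated APP/PS1 group held 0.913 M reads (M for 1000000) on 9509 genes and is left out of every level and test below, so that this group has n = 5. In that library C1ql2, Dsp, Trpc6 and Plk5 had no read, while Tdo2 had 336 reads, equal to 368 CPM, against 3.69 CPM at most in the other libraries. Summed levels of 9 striatum markers were 189 to 428 CPM in 30 libraries. They were 2648 CPM in treated old female 3, 2311 CPM in APP/PS1 female 1, 1490 CPM in young male 2, 1306 CPM in treated APP/PS1 male 2 and 697 CPM in old male 3. These 5 libraries bear on every comparison below but stay in, and values without them are given for some of the markers.

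All 9 markers had reads in all 35 libraries, with at least 9 reads in any of them. Per kilobase of exon, Fam163b had the highest median over the libraries, 66.4 CPM per kb, before C1ql2 with 22.5 and Plk5 with 9.89. Prox1 followed with 5.24 CPM per kb, Trpc6 with 3.45, Lct with 3.18, Dsp with 2.82 and Glis3 with 1.76, and Tdo2 was the lowest with 0.352. As a check against the labelled tissue, all 12 other granule cell genes that were examined had reads in all 35 libraries too. Among them were Calb1 (48.6 to 139 CPM) and Bcl11b (60.0 to 213 CPM). Any read counted as presence, so this check cannot tell whether other tissue was included.

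The markers differed in how far their levels ranged between libraries. Lct varied 248-fold between the lowest and the highest of the 35 libraries, Dsp 151-fold and C1ql2 112-fold. Prox1 varied 8.39-fold, Tdo2 10.3-fold, Trpc6 8.70-fold, Glis3 4.81-fold, Fam163b 4.42-fold and Plk5 3.56-fold. The widest ranges thus came from the synaptic organiser, the desmosomal protein and lactase, and the narrow ones from Glis3, Fam163b and Plk5.

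The low end of the Lct range was made up of 7 libraries. Lct was at 0.248 CPM in APP/PS1 female 1, 0.579 and 1.14 CPM in treated old females 3 and 2, and 0.999 and 1.37 CPM in treated APP/PS1 males 2 and 1. It was at 1.17 CPM in old male 3 and 1.33 CPM in young male 2, and the other 28 libraries had 5.36 to 61.5 CPM. Littermates were the only group without such a library, with 12.3 CPM as their lowest. Behind the lowest value stand 9 reads of APP/PS1 female 1, and behind the others 22 to 60 reads, so the order among these 7 libraries is loosely measured.

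**Figure D1:**
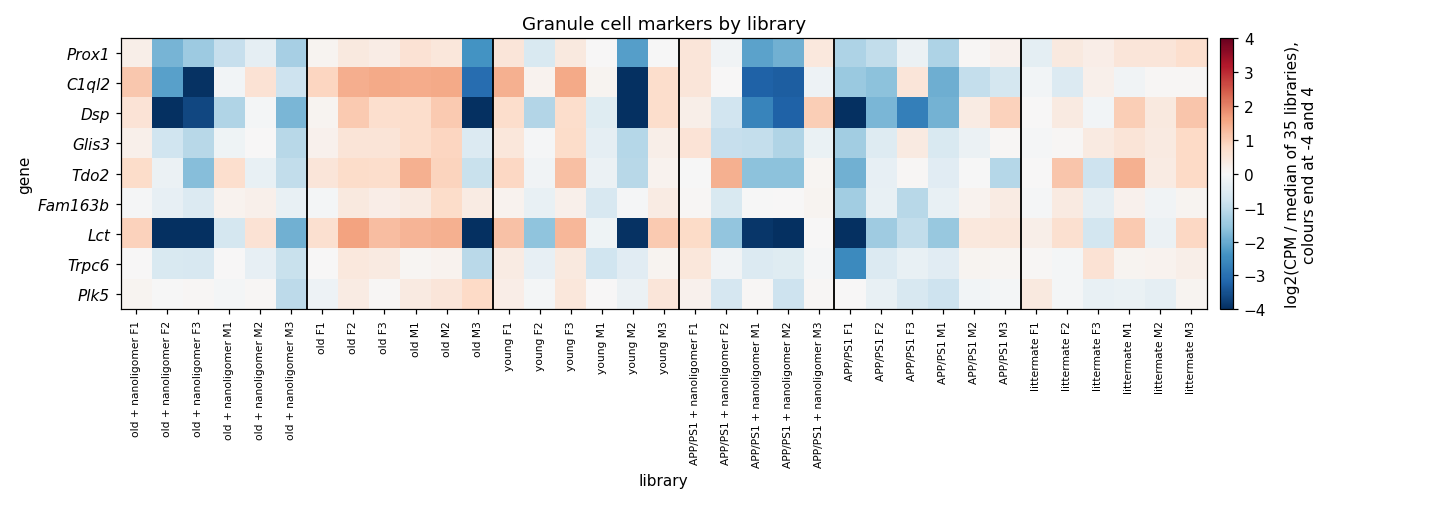
Each cell gives log2 of the CPM of a marker (rows) in 1 library (columns, F female, M male) over the marker's median of 35 libraries, with colours ending at -4 and 4. Dark blue cells show Lct and Dsp at their lowest in libraries of 5 groups and in none of the 6 littermates. C1ql2 is low in most of these columns, but has 11.6 CPM or more in every untreated APP/PS1 library. Fam163b and Plk5 stay pale in most of the columns with low Lct.

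C1ql2 and Dsp had their lowest values in the same libraries for the most part. C1ql2 was lowest in young male 2, with 1.15 CPM, and highest in young female 3, with 129 CPM. Dsp was lowest in treated old female 2, with 0.389 CPM, and highest in littermate male 3, with 58.7 CPM. Prox1 was lowest in old male 3, with 8.44 CPM, and highest in littermate male 3, with 70.8 CPM. No library came as close to 0 for Prox1 as for Lct or Dsp.

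Plk5 and Fam163b did not follow. Old male 3, with the lowest Prox1, had the highest Plk5 of all 35 libraries, 45.8 CPM, and 244 CPM of Fam163b, close to the old median of 249 CPM. Young male 2, with the lowest C1ql2, had 191 CPM of Fam163b and 22.5 CPM of Plk5. APP/PS1 female 1 was the exception for Fam163b, with the lowest value of all, 74.1 CPM, and it was also the lowest library for Glis3 (5.93 CPM), Tdo2 (0.359 CPM) and Trpc6 (2.98 CPM).

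**Figure D2:**
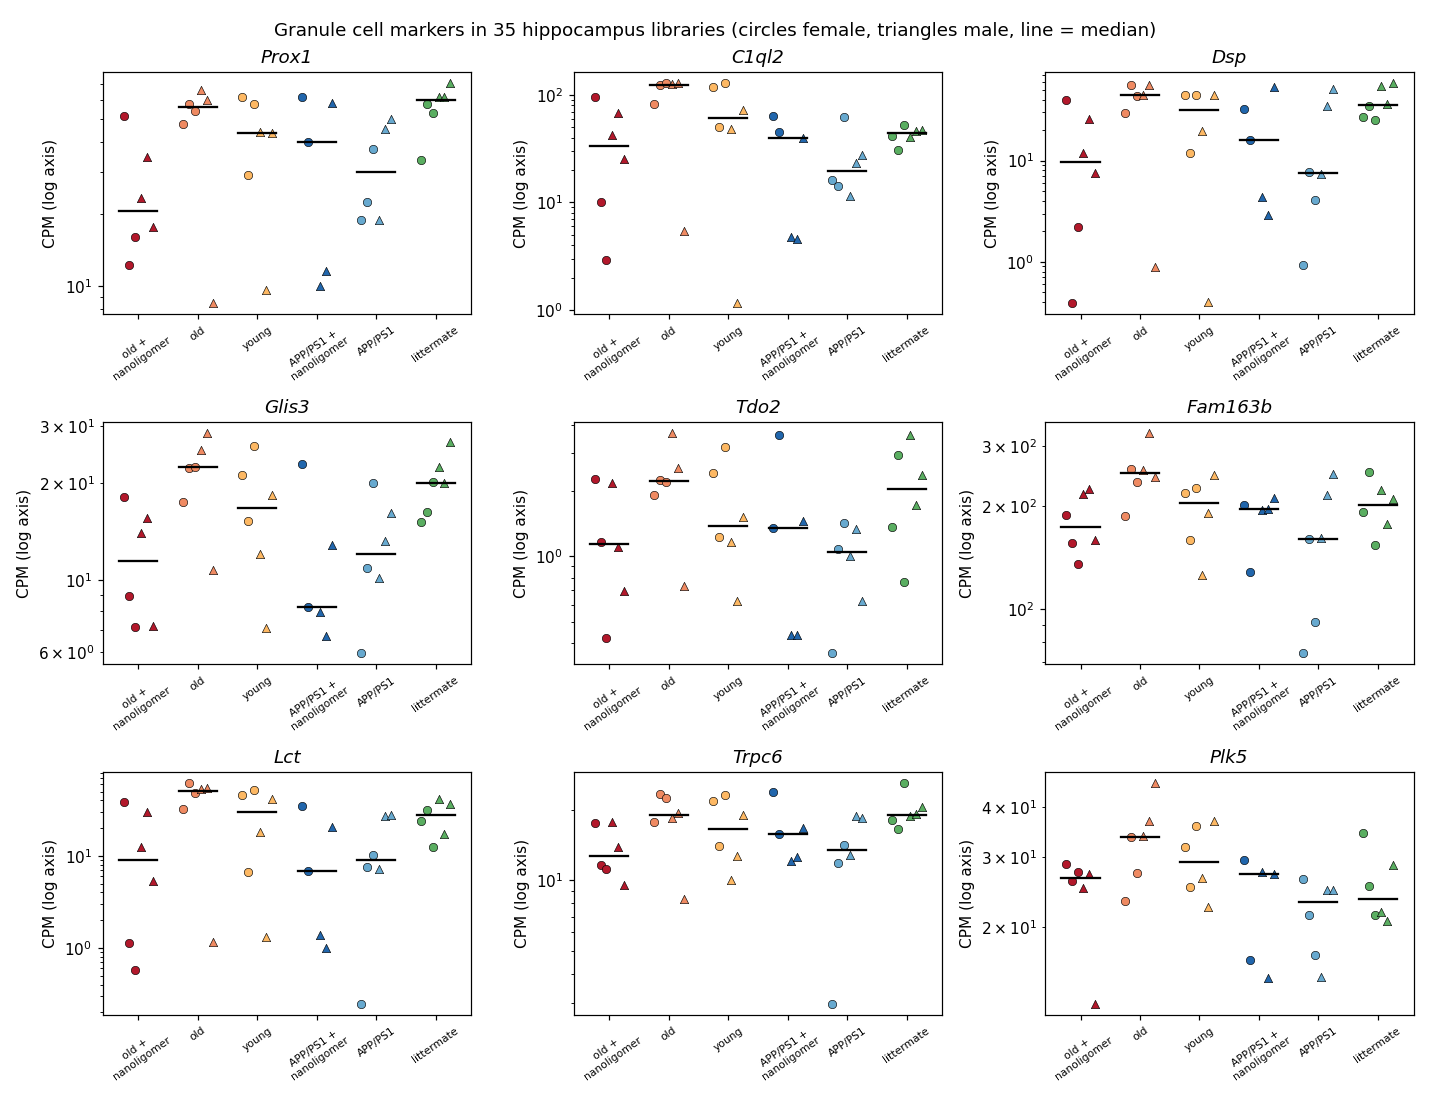
CPM of each marker on a log axis in 35 libraries, with groups side by side, circles for females, triangles for males and a line at the group median. Littermates lie close together for most markers, for example 30.8 to 52.2 CPM of C1ql2, while in the other 5 groups the highest C1ql2 is 5.41-fold the lowest or more.

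Likeness between markers was measured as Pearson's r of log2(CPM + 1) after the mean of each group and sex was taken away, over the 35 libraries. It is a description, since all genes of a library share its depth and its piece of tissue. Dsp and Lct had r = 0.95, Prox1 and Dsp 0.95, and Prox1 and C1ql2 0.92. The lowest values all involved Plk5 or Fam163b: 0.05 for Tdo2 with Plk5, 0.15 for Trpc6 with Plk5, 0.23 for C1ql2 with Plk5 and 0.24 for C1ql2 with Fam163b. Against the mean of the other 8 markers, Lct had r = 0.97, Dsp 0.91, Glis3 0.89, Prox1 0.86 and C1ql2 0.82. Trpc6 followed with 0.73, Tdo2 with 0.62, Fam163b with 0.56 and Plk5 with 0.33.

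**Figure D3:**
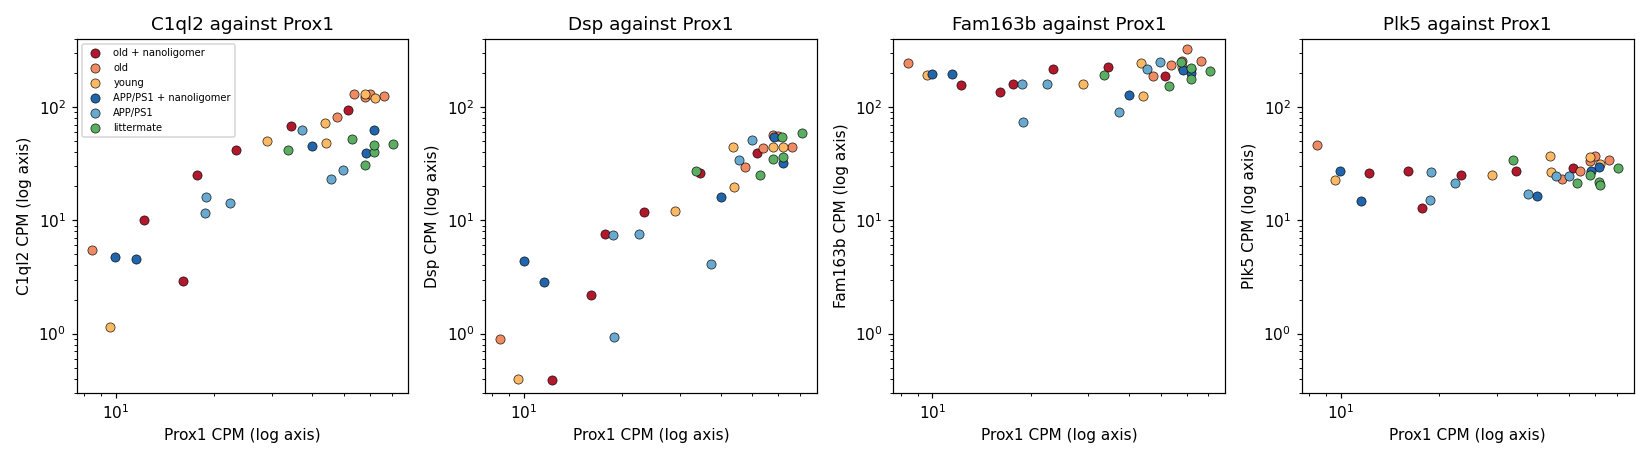
CPM of C1ql2, Dsp, Fam163b and Plk5 against CPM of Prox1, with both axes logarithmic and 1 point per library coloured by group. C1ql2 and Dsp are high where Prox1 is high (r = 0.92 and 0.95 after group and sex means are taken away), while Fam163b and Plk5 stay nearly level (r = 0.33 and 0.25).

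Among the genes outside the list whose levels were most like the mean of the 9 markers, by the same measure over 35 libraries, were Hectd2 (r = 0.92), Jph1 (0.92), Cebpd (0.90), Fam160a1 (0.89), Lhfpl2 (0.89), Orai2 (0.89) and Fam84b (0.88). Jph1, a junctophilin that ties the endoplasmic reticulum to the cell membrane, had 13.8 to 63.4 CPM. Orai2, a subunit of store-operated calcium channels, had 65.6 to 194 CPM.

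Other lists of hippocampal and neighbouring cells were set beside the markers in the same way. Of 12 other granule cell genes, 7 had a positive r with the markers' mean, led by Rfx3 (0.81), a transcription factor of ciliary genes, and Stxbp6 (0.78). Pdyn, the opioid precursor of mossy fibres, had r = -0.56, Pdzd2 -0.52, Akap7 -0.52 and Calb1, calbindin, -0.41, so the genes of this list did not all go with the 9 markers. How much of their RNA came from other cells was not tested. CA1 pyramidal cell genes were positive for 8 of 9, with Spink8 at 0.81, and CA3 and CA2 genes for 8 of 11, with Iyd at 0.81 and Coch at -0.74. Genes of immature granule cells and progenitors were positive for 6 of 10, with Neurod1 at 0.57 and Dcx, doublecortin, at -0.69. Mossy cell genes were positive for 4 of 6, choroid plexus genes for 7 of 8, with Kl at 0.55, and genes of caudal interneurons, which also use Prox1, for 4 of 6.

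Striatum genes went the other way in all 9 cases. Their r with the markers' mean was between -0.79 for the adenosine receptor Adora2a and -0.56 for the phosphodiesterase Pde10a. None of the 9 striatum genes was at 0 in any library. The 5 libraries with over 600 CPM of striatum markers had C1ql2 from 1.15 CPM in young male 2 to 16.2 CPM in APP/PS1 female 1, and Lct of 1.33 CPM or less. For C1ql2, APP/PS1 female 1 was not the lowest of its group: APP/PS1 female 2 had 14.3 CPM and male 1 had 11.6 CPM. Low markers also occurred below 600 CPM: treated old female 2 had 316 CPM of striatum markers with 10.05 CPM of C1ql2, and treated APP/PS1 male 1 had 313 CPM with 4.79 CPM of C1ql2. Both sums were above the 211 to 237 CPM of littermates, while young male 1, with 428 CPM, had 48.1 CPM of C1ql2. Neocortex genes were positive for 4 of 10, from -0.72 for Foxp2 to 0.75 for Scnn1a, thalamus and habenula genes for 2 of 6 and ependyma genes for 5 of 5.

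**Figure D4:**
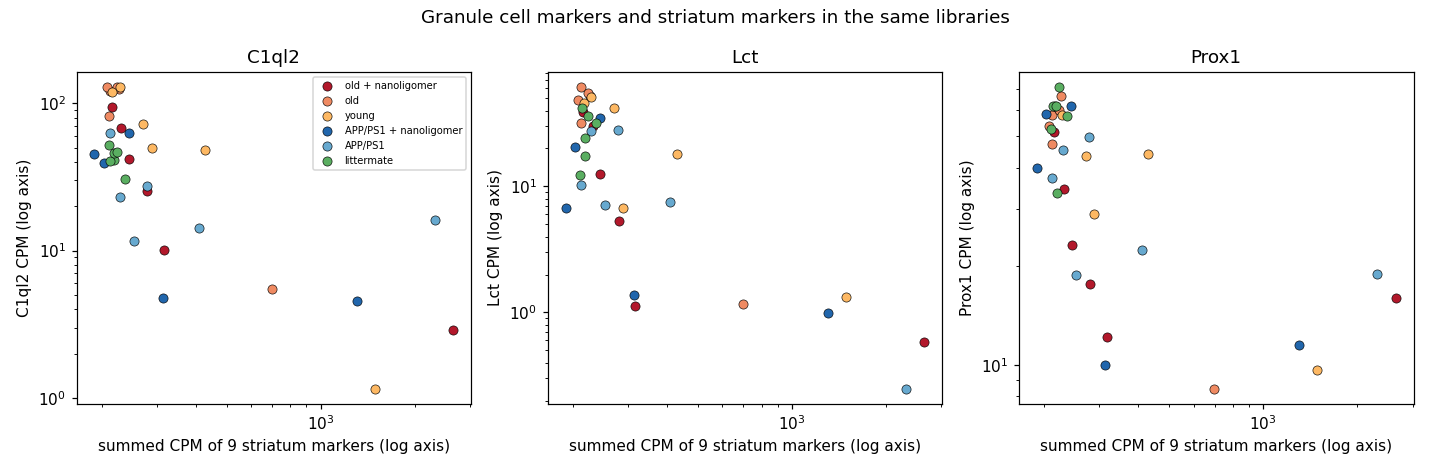
CPM of C1ql2, Lct and Prox1 against the summed CPM of 9 striatum markers in the same library, with both axes logarithmic and 1 point per library coloured by group. The 5 libraries from 697 to 2648 CPM of striatum markers have at most 1.33 CPM of Lct, and the libraries at 313 and 316 CPM have 1.37 and 1.14 CPM of Lct.

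Across the 6 groups, mean levels differed by less than the spread between libraries in nearly every step of their order. Means were highest in old mice for C1ql2, Glis3, Tdo2, Fam163b, Lct and Plk5, and in littermates for Prox1, Dsp and Trpc6. They were lowest in APP/PS1 mice for C1ql2, Tdo2, Fam163b, Trpc6 and Plk5, in treated old mice for Prox1 and Dsp, and in treated APP/PS1 mice for Glis3 and Lct. Of 45 pairs of neighbours in these orders, 1 differed by more than the larger SD of the pair: Fam163b averaged 251 ± 45.4 CPM in old mice and 201 ± 34.7 CPM in littermates (SD, n = 6 each). Those groups belong to different arms, which also differ in age, and that step was not tested. Steps between neighbours in a sorted order are small by construction, and groups further apart can differ by more. Prox1, for example, averaged 56.5 ± 12.65 CPM in littermates and 32.1 ± 13.9 CPM in APP/PS1 mice (SD, n = 6 each).

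APP/PS1 mice were set against their littermates to see what the transgenes change. All 9 markers had lower estimates in APP/PS1 mice, and their median log2 fold change was -0.89, against 0.00 over all 16475 genes tested. None passed the adjusted threshold with limma (0 of 9, while 0.0486% of all genes were called) or with edgeR, and DESeq2 called 1 of them, Prox1, and 1.55% of all genes. At an unadjusted p under 0.05 limma had 7 of the 9 as lower, against 5.46% of all genes. The markers move together between libraries (for Lct, r = 0.97 with the mean of the other 8) and were chosen with earlier results known. These 7 are thus not separate pieces of evidence.

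Among the transcription factors, Prox1 had 18.8, 29.9 and 49.8 CPM as the lowest, median and highest of the APP/PS1 libraries, against 33.6, 59.8 and 70.8 CPM in littermates. The groups overlapped through littermate female 1, which is below 3 of the APP/PS1 libraries. Its log2 fold change was -0.89 (95% limits -1.42 and -0.36, limma adjusted p = 0.229, DESeq2 adjusted p = 0.0356). Glis3 had 5.93, 12.05 and 20.04 CPM in APP/PS1 mice, against 15.2, 20.03 and 26.8 CPM in littermates. APP/PS1 female 3 and male 3 lay within the littermates' range and the other 4 below it. The log2 fold change was -0.73 (95% limits -1.25 and -0.21, limma adjusted p = 0.331).

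Among the synaptic and junction proteins, medians were lower in APP/PS1 mice. C1ql2 had 11.6, 19.7 and 62.7 CPM as the lowest, median and highest in APP/PS1 mice, against 30.8, 43.8 and 52.2 CPM in littermates. APP/PS1 female 3 was the highest of all 12 libraries, while the other 5 APP/PS1 libraries, at 11.6 to 27.6 CPM, lay below every littermate. The log2 fold change of C1ql2 was -0.95 (95% limits -1.67 and -0.24, limma adjusted p = 0.352). Dsp had 0.938, 7.52 and 51.5 CPM in APP/PS1 mice, against 25.04, 35.3 and 58.7 CPM in littermates. 4 of the APP/PS1 libraries lay below every littermate, and males 2 and 3 lay among them. The log2 fold change of Dsp was -2.12 (95% limits -3.40 and -0.83, limma adjusted p = 0.241).

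Of the enzymes, Lct had 0.248, 8.94 and 27.8 CPM in APP/PS1 mice, against 12.3, 27.9 and 41.8 CPM in littermates, with a log2 fold change of -1.83 (95% limits -3.59 and -0.07, limma adjusted p = 0.468). Here too males 2 and 3 lay among the littermates and the other 4 below them. Tdo2 had 0.359, 1.05 and 1.42 CPM in APP/PS1 mice, against 0.766, 2.05 and 3.63 CPM in littermates, with a log2 fold change of -1.07 (95% limits -1.97 and -0.17, limma adjusted p = 0.400). Trpc6, the channel, had 2.98, 13.5 and 18.9 CPM in APP/PS1 mice, against 16.6, 19.0 and 25.9 CPM in littermates, with a log2 fold change of -0.77 (95% limits -1.53 and -0.01, limma adjusted p = 0.483). Fam163b and Plk5 differed least: the log2 fold change was -0.45 for Fam163b (95% limits -0.96 and 0.06, limma adjusted p = 0.553) and -0.23 for Plk5 (95% limits -0.58 and 0.12, limma adjusted p = 0.671).

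2 libraries of the APP/PS1 group bear on these values. Without APP/PS1 female 3, limma called C1ql2, with a log2 fold change of -1.28 (adjusted p = 0.0126), and Glis3, with -0.93 (adjusted p = 0.0316). That library was the highest of its group for both genes, and over 12 fits with 1 library left out, 0 to 2 markers were called. The 2 calls thus follow from which library was left out and are no separate support. Calls rose across all genes in that fit too, to 1.56% of 16433 genes, against 0.0486% with all libraries. Without APP/PS1 female 1, which had 2311 CPM of striatum markers, Lct had -0.95 in place of -1.83, Trpc6 -0.38 in place of -0.77 and Fam163b -0.27 in place of -0.45, and 0 of 9 markers were called. Dsp had -1.60, Glis3 -0.53, Tdo2 -0.83, Prox1 -0.78 and C1ql2 -0.83 in that fit, all weaker too. Plk5 had -0.27 in place of -0.23. Summed striatum markers were 212 to 2311 CPM in APP/PS1 mice, against 211 to 237 CPM in littermates. All 9 of them had higher estimates, with Drd1, the dopamine receptor of the direct pathway, at 1.39 and not overlapping between the groups, and Adora2a at 1.84, and 0 of 9 passed (adjusted p = 0.330 and 0.414 for these 2).

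Other lists were read from the same fit. Of the 12 other granule cell genes, 8 had lower estimates and 4 higher, with a median of -0.07, and 0 passed. Pdzd2 had 0.52 (adjusted p = 0.325) and Rfx3 -0.41 (adjusted p = 0.401). CA1 genes were lower for 8 of 9 with a median of -0.33, among them Fibcd1 with -1.01 and Lefty1 with -1.52, and CA3 and CA2 genes for 8 of 11, with the kainate receptor subunit Grik4 at -0.52 and Coch at 0.93. Immature granule cell and progenitor genes were lower for 4 of 10, with Neurod1 at -0.44 and Sox4 at 0.22. Of the caudal interneuron genes, 4 of 6 were lower, with Htr3a at -0.996 (adjusted p = 0.265) and Npas1 at -0.23. Mossy cell genes were lower for 4 of 6, with Csf2rb2 at -1.20 and Tm4sf1 at -0.32. All 8 choroid plexus genes had lower estimates, with Kl at -0.92 and Folr1 at -2.10, and neocortex genes were higher for 6 of 10, with Nxph4 at 1.19 and Foxp2 at 1.61. Limma called no member of these lists, while DESeq2 called 3 neocortex, 2 choroid plexus and 1 CA3 and CA2 gene. The part of neighbouring tissue in the markers' estimates was not tested beyond the values without APP/PS1 female 1.

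Treatment of old mice was the comparison of old mice with nanoligomer against old mice. All 9 markers had lower estimates in treated mice, and their median log2 fold change was -0.86, against 0.00 over all 16517 genes. Limma and edgeR called none of the 9 and none of all genes (0%), and DESeq2 called none of the 9 and 0.0121% of all genes. At an unadjusted p under 0.05 limma had 3 of the 9 as lower, Fam163b, Glis3 and Plk5, against 3.6% of all genes. Here too the markers share each library's piece of tissue and were chosen with earlier results known, so these are not 3 separate results. Fam163b and Plk5 were also the markers least like the mean of the others (r = 0.56 and 0.33). Prox1, C1ql2, Dsp and Lct, which move together, had unadjusted limma p-values of 0.102 to 0.154.

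Fam163b had the narrowest limits. It had 135.5, 174 and 224 CPM as the lowest, median and highest of the treated old libraries, against 187, 249 and 327.5 CPM in old mice. 3 treated libraries lay below every old library, and the others lay among them. The log2 fold change was -0.49 (95% limits -0.75 and -0.22, unadjusted p = 0.00157, limma adjusted p = 0.678). Glis3 had 7.18, 11.4 and 18.1 CPM in treated mice, against 10.8, 22.3 and 28.5 CPM in old mice, with a log2 fold change of -0.87 (95% limits -1.49 and -0.26, limma adjusted p = 0.678). Plk5 had 12.9, 26.6 and 28.7 CPM in treated mice, against 23.2, 33.7 and 45.8 CPM in old mice, with a log2 fold change of -0.46 (95% limits -0.90 and -0.03, limma adjusted p = 0.678). Without treated old male 3, its lowest library, Plk5 had -0.27.

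The markers with wide ranges had lower medians and wide limits. Prox1 had 12.2, 20.5 and 51.5 CPM in treated old mice, against 8.44, 55.9 and 66.2 CPM in old mice, and 5 of the 6 old libraries had 47.5 CPM or more. Treated old female 1, with 51.5 CPM, was the only treated library within the range of those 5, and old male 3 was the lowest of all 12. The log2 fold change was -0.86 (95% limits -1.91 and 0.20, limma adjusted p = 0.696).

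C1ql2 had 2.89, 33.6 and 94.7 CPM in treated old mice, against 5.45, 124 and 129 CPM in old mice, with a log2 fold change of -1.53 (95% limits -3.56 and 0.50, limma adjusted p = 0.711). Dsp had 0.389, 9.76 and 39.6 CPM in treated old mice, against 0.895, 44.1 and 56.4 CPM in old mice, with -1.82 (95% limits -4.43 and 0.78, limma adjusted p = 0.727). For both, treated old females 2 and 3 and old male 3 were the low libraries. Lct had 0.579, 8.97 and 38.9 CPM in treated old mice, against 1.17, 50.4 and 61.5 CPM in old mice, with -2.09 (95% limits -4.66 and 0.48, limma adjusted p = 0.696). Tdo2 had -0.84 (95% limits -1.83 and 0.15, limma adjusted p = 0.687) and Trpc6 -0.40 (95% limits -0.90 and 0.10, limma adjusted p = 0.697).

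Striatum markers summed to 215.5 to 2648 CPM in treated old mice, against 207 to 697 CPM in old mice. Without treated old female 3 and old male 3, the 2 libraries over 600 CPM, Prox1 had -1.22, Dsp -2.63, Lct -2.42 and C1ql2 -1.71, with 0 of 9 called (adjusted p = 0.320 for Prox1). Glis3 had -0.95, Tdo2 -0.86 and Trpc6 -0.53, also stronger than with all libraries. Fam163b, with -0.46 in place of -0.49, and Plk5, with -0.39 in place of -0.46, were weaker. Of the 12 other granule cell genes, 7 had lower estimates, with Ablim3 at -0.21 and Tiam1 at -0.26. CA3 and CA2 genes were lower for 8 of 11, with Cdh24 at -0.58 and Rgs14 at -0.52, and CA1 genes for 7 of 9, with Lefty1 at -1.54. Of 10 genes of immature granule cells and progenitors, Tac2 had 0.86 and Dcx 0.43, and 6 were lower. The interneuron peptide Vip had 0.72, with 3 of 6 genes of its list lower, and neocortex genes were higher for 9 of 10, with Rspo1 at 1.54. None of the genes in these lists passed (limma adjusted p = 0.678 or more).

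Treatment of APP/PS1 mice was read from 5 treated and 6 untreated libraries. 4 of the 9 markers had lower and 5 higher estimates in treated mice, and their median log2 fold change was 0.09, against 0.00 over all 16124 genes. None of the 9 passed with limma, edgeR or DESeq2 or had an unadjusted p under 0.05, while limma called 0% and DESeq2 0.0434% of all genes and limma had 2.96% of them at an unadjusted p under 0.05.

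Prox1 had 61.9, 39.95, 9.97, 11.5 and 58.4 CPM in treated APP/PS1 females 1 and 2 and males 1, 2 and 3. APP/PS1 mice had 18.8, 29.9 and 49.8 CPM as their lowest, median and highest. Treated libraries were thus both above and below all APP/PS1 libraries, and the log2 fold change was -0.04 (95% limits -1.18 and 1.10, limma adjusted p = 0.997). C1ql2 had 63.2, 45.0, 4.79, 4.53 and 39.3 CPM in the same treated libraries, against 11.6, 19.7 and 62.7 CPM in APP/PS1 mice, with -0.06 (95% limits -1.49 and 1.37, limma adjusted p = 0.997). Treated males 1 and 2 were low for both genes. Without treated male 2 and APP/PS1 female 1, the libraries with over 600 CPM of striatum markers, the log2 fold change was 0.06 for Prox1 and 0.10 for C1ql2, with 0 of 9 markers called. In that fit Lct had -0.58 in place of -0.29, Plk5 0.30 in place of 0.09 and Trpc6 0.15 in place of 0.44.

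Fam163b had 201, 128, 195, 196 and 212 CPM in treated APP/PS1 females 1 and 2 and males 1, 2 and 3, against 74.1, 161 and 248 CPM as the lowest, median and highest of APP/PS1 mice. Its log2 fold change was 0.29 (95% limits -0.22 and 0.79, limma adjusted p = 0.997). Dsp had 0.50 (95% limits -1.76 and 2.75), Lct -0.29 (95% limits -3.09 and 2.50), Glis3 -0.14 (95% limits -0.94 and 0.66) and Tdo2 0.35 (95% limits -0.87 and 1.56). Trpc6 had 0.44 (95% limits -0.49 and 1.36) and Plk5 0.09 (95% limits -0.40 and 0.57). The limits of Lct reached past 2 log2 units on either side, so differences of that size in either direction lie within them. The smallest difference that these libraries could detect was not computed.

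Choroid plexus markers differed in level between the same groups: they summed to 194 to 5247 CPM in treated libraries, against 148 to 250 CPM in APP/PS1 mice. All 8 had higher estimates, with Ttr, transthyretin, at 4.42 and Folr1, a folate receptor, at 3.68 (limma adjusted p = 0.997 for both). Limma called 0 of the 8, while DESeq2 called 3: Ttr (adjusted p = 0.00131), Folr1 (adjusted p = 0.000395) and Aqp1, a water channel (adjusted p = 0.0236), among 7 genes called in all. Aqp1 is named for such calls, after its values were seen. Ttr did not overlap between the groups, and Folr1 and Kcne2 had no read in 1 APP/PS1 library each. Their part in the markers' values was not tested. Striatum markers were lower for 8 of 9, with a median of -0.28, and 12 other granule cell genes had a median of -0.08, with Smad3 at 0.16 and Tiam1 at -0.13.

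**Figure D5:**
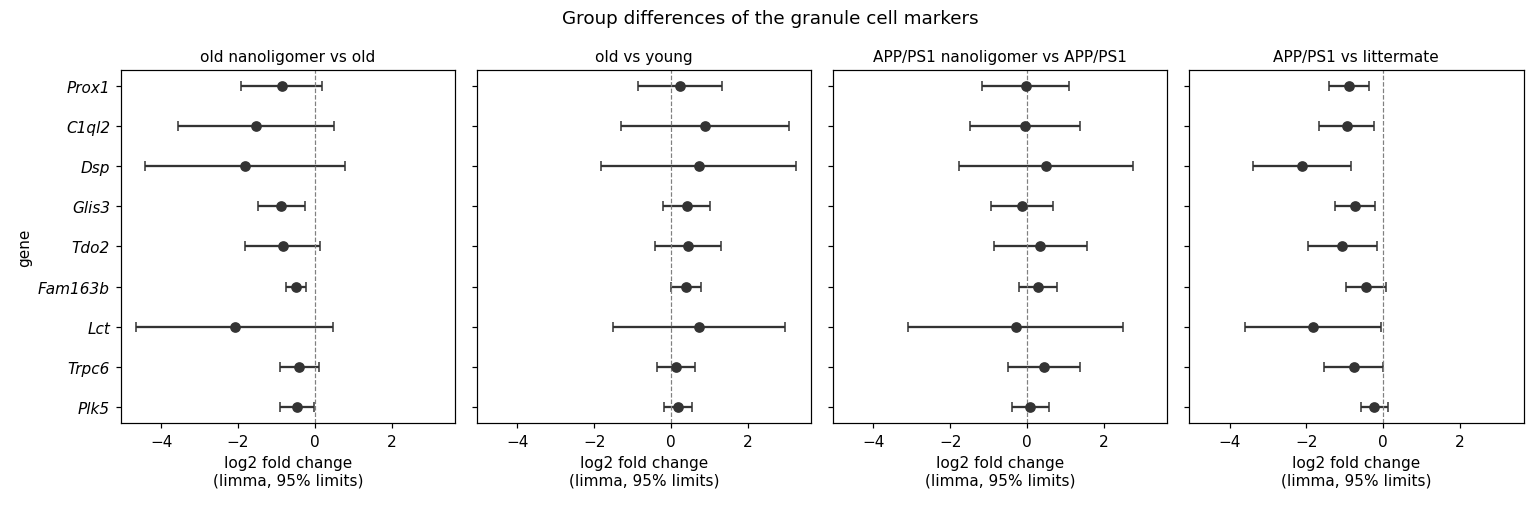
Log2 fold change of each marker in 4 comparisons (limma on the deposited normalized counts), with points for estimates, bars for 95% limits and a dashed line at 0. All 9 points lie left of 0 for treated old against old mice and for APP/PS1 mice against littermates, and right of 0 for old against young mice, and none passed the adjusted threshold.

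Old mice were set against young mice for the difference between 18 and 8 months, which cannot be told apart from other differences between these cohorts. All 9 markers had higher estimates in old mice, and their median log2 fold change was 0.41, against 0.00 over all 16626 genes. Limma, edgeR and DESeq2 called none of the 9, while limma called 0.0361% and DESeq2 0.74% of all genes. 1 of the 9, Fam163b, had an unadjusted limma p under 0.05, against 3.37% of all genes that were higher at that threshold.

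Fam163b had 187, 249 and 327.5 CPM as the lowest, median and highest of old mice, against 125.5, 205 and 247 CPM in young mice, with a log2 fold change of 0.40 (95% limits 0.0034 and 0.79, unadjusted p = 0.0483, limma adjusted p = 0.810). C1ql2 had 5.45, 124 and 129 CPM in old mice, against 1.15, 61.4 and 129 CPM in young mice, with 0.88 (95% limits -1.30 and 3.06, limma adjusted p = 0.916). The lowest libraries were old male 3, with 5.45 CPM of C1ql2, and young male 2, with 1.15 CPM. Dsp had 0.72 (95% limits -1.81 and 3.25), Lct 0.73 (95% limits -1.50 and 2.97), Prox1 0.24 (95% limits -0.85 and 1.34) and Glis3 0.41 (95% limits -0.21 and 1.03). Tdo2 had 0.45 (95% limits -0.41 and 1.31), Plk5 0.17 (95% limits -0.18 and 0.53) and Trpc6 0.13 (95% limits -0.37 and 0.63). Without young male 2, Prox1 had -0.08, C1ql2 -0.02 and Dsp -0.19, so the sign of these 3 rests on that library. Without both young male 2 and old male 3, the libraries with over 600 CPM of striatum markers, all 9 estimates were positive, from 0.01 for Plk5 to 0.92 for Lct, and 0 of 9 were called.

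Markers of other cells differed between the same groups. Choroid plexus markers summed to 215 to 511 CPM in old mice, against 225.5 to 5687 CPM in young mice, with all 8 lower, Enpp2 at -1.28 (limma adjusted p = 0.603) and Kcne2 at -3.13 (limma adjusted p = 0.645). Limma called 0 of these 8, and DESeq2 called 1, Aqp1, with an estimate of -2.10 (DESeq2 adjusted p = 0.0305). Striatum markers summed to 207 to 697 CPM in old mice, against 216 to 1490 CPM in young mice, and all 9 had lower estimates, with a median of -0.52 and 0 called by either tool. All 5 ependyma genes had lower estimates too, with a median of -0.71 and 0 called. The part of choroid plexus and ependyma in the markers' values was not tested. Of the 10 genes of immature granule cells and progenitors, 7 had lower estimates in old mice, with Sox11 at -0.38 (limma adjusted p = 0.603) and Sox4 at -0.23 (limma adjusted p = 0.771). The 12 other granule cell genes had a median of 0.03, with 5 lower, among them Calb1 at -0.28 and Ablim3 at -0.14 (limma adjusted p = 0.818 and 0.853). All 9 CA1 genes were higher, with a median of 0.36, with Lefty1 at 0.97 and Pou3f1 at 0.50 (the 2 with the smallest p), and none of them passed.

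Effects in males and females were estimated from the interaction of sex with group, with 3 libraries of each sex in a group apart from the 2 females of the treated APP/PS1 group. In treated old mice relative to old mice, C1ql2 had a log2 fold change of -0.10 in males and -2.96 in females, Dsp one of 0.02 in males and -3.67 in females, and Lct one of -0.25 in males and -3.93 in females. The differences, males minus females, had 95% limits of -1.02 and 6.74 for C1ql2, -1.29 and 8.66 for Dsp and -1.20 and 8.57 for Lct, and did not pass (limma adjusted p = 0.914). The male estimates turn on old male 3. C1ql2 had 42.0, 67.7 and 25.3 CPM in treated old males 1 to 3, against 126, 129 and 5.45 CPM in old males 1 to 3. Dsp had 11.9, 26.1 and 7.62 CPM in treated old males, against 44.6, 56.0 and 0.895 CPM in old males. Without old male 3, a choice made after seeing the data, the male estimates were -1.62 for C1ql2, -1.90 for Dsp and -2.08 for Lct. Those of females were -1.81 for C1ql2 without treated old female 3 and -2.18 for Dsp without treated old female 2. Fam163b had -0.46 in males and -0.51 in females, while Plk5 had -0.90 in males and -0.03 in females.

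In APP/PS1 mice against littermates, Dsp had -1.01 in males and -3.22 in females, and Fam163b 0.05 in males and -0.95 in females (limma adjusted p = 0.847 for both differences). Without APP/PS1 male 1 the male estimate of Dsp was -0.17 and that of Prox1 -0.41. Without APP/PS1 female 2 the female effect was called for Dsp, at -3.90 (limma adjusted p = 0.0312), and Fam163b, at -1.29 (limma adjusted p = 0.0213), as it was for 1.34% of all genes. That library, left out after seeing the data, was the highest APP/PS1 female for both genes, so these calls are no separate support. Prox1 had -0.86 in males and -0.92 in females with all libraries. In treated against untreated APP/PS1 mice, Dsp had -1.41 in males and 2.87 in females (limma adjusted p = 0.924 for the difference), and the male estimate was -0.61 without treated male 2 and -2.70 without treated male 3. In none of the 4 comparisons did the sexes differ for any marker at the adjusted threshold (0 of 9 in each, with 0% of all genes called). At an unadjusted limma p under 0.05 the sexes differed for Plk5 in old against young mice (4.39% of all genes) and in treated old against old mice (4.71%). They did so for Fam163b in APP/PS1 mice against littermates (5.1%), and for Dsp and Lct in treated against untreated APP/PS1 mice (4.52%).

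The treatment effects of both arms were compared directly in 1 joint limma fit. Fam163b had 0.29 in APP/PS1 mice and -0.49 in old mice, a difference of 0.77 (95% limits 0.21 and 1.33, unadjusted p = 0.00929, limma adjusted p = 0.918). The differences of the other 8 markers were all positive, from 0.55 for Plk5 to 2.32 for Dsp, with limits that included 0. None of the 9 passed, and 0% of 15990 genes did, while 1 of 9 and 4.35% of all genes had an unadjusted p under 0.05. The effect of the transgenes minus that of age was negative for all 9, from -0.41 for Plk5 to -2.84 for Dsp, and 0 of 9 passed, while 0.0429% of 16300 genes did (3 of 9 and 11.8% of all genes at an unadjusted p under 0.05). Glis3 had -1.13 (95% limits -1.96 and -0.31, limma adjusted p = 0.303), Tdo2 -1.52 (95% limits -2.76 and -0.28, limma adjusted p = 0.349) and Fam163b -0.85 (95% limits -1.51 and -0.18, limma adjusted p = 0.329). No marker separated the groups of any of the 4 comparisons without overlap, against 0.505% of all genes for old against young, 0.254% for treated old against old, 0.85% for APP/PS1 against littermates and 0.31% for treated against untreated APP/PS1 mice.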

How the data were processed

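RNA of mouse hippocampus was measured in 36 libraries. STAR, DESeq2 and mm10 are named in the submitters' processing notes, with no roles, and versions, the counting tool and the annotation were not given in the sources used here. Deposited values are normalized counts, a signal that the authors divided by a size factor per library, per the file headers and values, in 4 tables of 12 libraries. Dividing by each library's step gave whole reads (100% of values within 0.001 reads), identical for the 12 libraries in 2 tables. 1 letter differs between a column name and the title of treated APP/PS1 male 3. 0 value columns were left out.

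Limma 3.58.1 in R 4.3.3 (trend, sex and group) was fitted per table to log2(normalized count + 1) where a gene's mean was at least 10, with Benjamini-Hochberg adjustment over all genes and a threshold of 0.05. Recovered reads were tested with edgeR 4.0.16 and DESeq2 1.42.0. Candidate genes for likeness had at least 5 CPM on average. Gene lengths come from GENCODE annotation of GRCm38, with exons of all transcripts merged. The steps were tried on simulated data.

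All 9 markers were named whatever their p, with up to 2 genes of smallest p from each of 11 other lists (93 genes, 92 in the tables) and the 8 most like genes. Some genes that this rule names are not reported here. Markers and lists were chosen with earlier results of these data known. Shared replicate labels did not pair the libraries. The labels do not say that libraries are separate animals, so p-values measure the spread between these libraries.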

Additional observations from a re-analysis of the deposited data

Results flagged for a closer look

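In 5 of 54 groups of libraries (9 markers in 6 groups), 1 library lay far from the rest by Dixon's test at the 95% level, which chance flags in about 1 of 20 groups. Old male 3 was far below the other old libraries for 2 markers: Prox1 was 8.44 CPM there, against 47.5 to 66.2 CPM in the other 5, and Trpc6 was 8.33 CPM, against 17.8 to 23.3 CPM. The same library had 697 CPM of striatum markers. C1ql2 was 62.7 CPM in APP/PS1 female 3, far above the 11.6 to 27.6 CPM of the other APP/PS1 libraries. Fam163b was 128 CPM in treated APP/PS1 female 2, below the 195 to 212 CPM of the other 4. Plk5 was 12.9 CPM in treated old male 3, below the 25.1 to 28.7 CPM of the other treated old libraries.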

How the results depend on the processing

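Of 405 log2 fold changes of single markers under other settings, and of 423 with 1 library left out, 14 and 23 changed sign, none of them in the comparisons of treated old mice with old mice or of APP/PS1 mice with littermates.

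No marker was called in any comparison apart from APP/PS1 mice against littermates, where DESeq2 called 1 (Prox1) and leaving out single libraries gave 0 to 2. With DESeq2, all genes called were 123 for old against young, 2 for treated old against old, 256 for APP/PS1 against littermates and 7 for treated against untreated APP/PS1 mice, and limma without a filter gave 1 in the last. Leaving out single libraries gave 4 to 11 genes for age, the highest without old female 1, and 6 to 256 for the transgenes, with 21 without APP/PS1 female 1 and 256 without APP/PS1 female 3. A limit of 600 CPM of striatum markers, chosen after seeing the data, left out 5 libraries across the comparisons. For the transgenes it left out only APP/PS1 female 1, so it is the same fit that gave 21 genes.

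Libraries with the same replicate label did not deviate together: correlations of their deviations ran from -0.247 to 0.294. With the labels as a replicate block, genes called for age were 1 in place of 6 and for the transgenes 10 in place of 8, and C1ql2 in treated APP/PS1 mice had 0.12; 0 markers were called.

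The other changes of sign in treated against untreated APP/PS1 mice were these. Prox1 had 0.17 with edgeR, 0.18 with DESeq2, 0.19 with treated female 3 added and 0.062 under the striatum limit. C1ql2 had 0.18 with edgeR, 0.18 with DESeq2 and 0.10 under the striatum limit, and Lct had 0.0464 with edgeR and 0.059 with DESeq2. With treated female 3 added, Dsp had -0.81, Fam163b -0.72, Trpc6 -0.99 and Plk5 -1.46. With single libraries left out, the ranges were -0.36 to 0.29 for Prox1, -0.44 to 0.32 for C1ql2, -0.15 to 1.13 for Dsp, -0.49 to 0.015 for Glis3, -0.092 to 0.59 for Tdo2, -1.24 to 0.37 for Lct and -0.055 to 0.24 for Plk5. For old against young they were -0.075 to 0.67 for Prox1, -0.015 to 1.48 for C1ql2 and -0.19 to 1.56 for Dsp. With 1 library of the same sex left out, chosen after seeing the data, male estimates in treated old against old mice ran from -1.62 to 0.68 for C1ql2, -1.90 to 1.07 for Dsp and -2.08 to 0.70 for Lct, and the female estimate of Plk5 from -0.16 to 0.10. In APP/PS1 mice against littermates, the male estimate of Fam163b ran from -0.080 to 0.23. The cause of each change was not tested.

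Depth limits the lowest values: Lct rests on 9 reads in APP/PS1 female 1 and Dsp on 12 in treated old female 2. CPM levels from separate tables were compared without a test.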

Other observations

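The balance between C1ql2 and Prox1 differed between the arms. The ratio of their CPM, not per length, had a lowest, median and highest value of 0.180, 1.61 and 1.96 in treated old mice, 0.646, 2.01 and 2.40 in old mice and 0.120, 1.70 and 2.23 in young mice. In the transgenic arm it was 0.394, 0.673 and 1.13 in treated APP/PS1 mice, 0.511, 0.627 and 1.68 in APP/PS1 mice and 0.533, 0.704 and 1.23 in littermates. Medians were thus above 1 in the 3 groups of the aging arm and below 1 in the 3 groups of the transgenic arm. The medians of Dsp over Prox1 overlapped between the arms, at 0.471 in treated old, 0.742 in old and 0.581 in young mice, and at 0.435 in treated APP/PS1 mice, 0.367 in APP/PS1 mice and 0.706 in littermates. The arms differ in age and cohort, which cannot be told apart here, and a strain is named above for the aging arm only. Scaling of a library cancels in a ratio taken within it. The difference between the arms was seen in the data and not tested.

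The shallow library of treated APP/PS1 female 3 held 122 reads of Prox1, 5 of Lct, 3 of Fam163b and 2 of Glis3 beside 336 of Tdo2, an order of levels unlike that of any other library, in which Fam163b had 2686 reads or more.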
